A study of Mus musculus with 4 samples.

Results

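The cell cycle and proliferation genes described here are 45 genes of mesenchymal stem cells (MSCs), taken by gene symbol from a hand-made list and found in the table of 17457 genes measured by RNA-sequencing. They comprise 8 G1 cyclins and cyclin-dependent kinases, 5 inhibitors of these kinases, 5 genes of the retinoblastoma (RB) and E2F families, 11 genes of DNA replication and nucleotide supply, and 16 genes of G2 and mitosis. Of the 45 genes, 40 reached an FPKM (fragments per kilobase of transcript and per mapped fragments of the library, a level corrected for transcript length) of 1 in at least 2 of the 4 libraries and were tested among 11056 genes.

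The MSCs came from female C57BL/6J mice that were 7 to 9 weeks old when injected. Leukemic mice (whose MSCs are called L-MSCs) had been given 1000 cells of PER-M60, a mouse pre-B acute lymphoblastic leukemia line carrying *BCR-ABL1*, into the tail vein and were killed when the leukemia burden was high. Control mice had been given PBS and were killed at the matching time. Each group has 2 libraries, each made from MSCs pooled from 4 to 7 mice, so that differences between single mice are not seen, and 1 leukemia line stands for the disease. The cells were sorted from long bones digested after the marrow had been flushed out and discarded, as cells without CD45, TER119 and CD31 and with Sca-1 and PDGFRα, and they were not cultured before RNA extraction.

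The libraries carried the genes of the sorted antigens. The Sca-1 gene *Ly6a* was at an FPKM of 1702 and 1985 in L-MSCs and of 1056 and 1711 in control MSCs, *Pdgfra* was between 66.8 and 93.0, *Ptprc* (CD45) was at most 0.02 and *Pecam1* (CD31) at most 0.93. The number of genes above 0 was 13623 and 14704 in L-MSCs, against 14323 and 14057 in control MSCs, and reads per library are not given with the values. Values were scaled between libraries with factors of 0.969 to 1.06, and the Pearson correlation of log2(FPKM + 1) across genes was 0.964 between the L-MSC libraries, 0.971 between the control libraries and 0.921 to 0.949 between groups. A gene is said to be called below when its p from limma, adjusted by Benjamini-Hochberg over all genes tested, was 0.05 or less and its log2 fold change was 1 or more in size. By this rule 269 genes rose in L-MSCs and 292 fell. Without scaling between libraries the counts were 301 higher and 194 lower.

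A cell leaves quiescence when D-type cyclins, made in response to growth factors, switch on CDK4 and CDK6, which phosphorylate the RB proteins and so free E2F factors to transcribe the genes of DNA synthesis. The INK4 inhibitors (the *Cdkn2* genes) block CDK4 and CDK6, while the CIP/KIP inhibitors (the *Cdkn1* genes) bind a wider range of cyclin-kinase complexes. Genes of mitosis are transcribed later, in G2, through the MuvB complex with B-MYB and FOXM1, and are repressed in quiescent cells through the same promoter elements. Marrow MSCs in adult bone are known as largely quiescent cells.

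The promoters of 5 members are shown because *Tk1* and *Birc5* carry the called decreases among the replication and mitosis genes, while *Top2a*, *Cdk1* and *Ccnb2* hold the elements typical of mitosis promoters. Each line gives the 250 bases upstream of an annotated start, 5′ to 3′ on the strand of the gene, from RefSeq on GRCm38.p6. For *Tk1* and *Top2a* this start lies inside the outer bounds of the gene (chr11:117815519-117826087 and chr11:98992947-99024199). Part of the stretch printed for these genes therefore overlaps the gene. Capitals mark CHR elements (TTTGAA, or TTCAAA on the other strand), CCAAT boxes (CCAAT, or ATTGG on the other strand) and E2F sites (TTTCCCGC, TTTCGCGC, TTTGCCGC or TTTGGCGC on either strand). The intervals are chr11:117826015-117826264 (minus strand) for *Tk1*, chr11:117848987-117849236 (plus strand) for *Birc5*, chr11:99024190-99024439 (minus strand) for *Top2a*, chr10:69352913-69353162 (minus strand) for *Cdk1* and chr9:70421555-70421804 (minus strand) for *Ccnb2*.
Tk1: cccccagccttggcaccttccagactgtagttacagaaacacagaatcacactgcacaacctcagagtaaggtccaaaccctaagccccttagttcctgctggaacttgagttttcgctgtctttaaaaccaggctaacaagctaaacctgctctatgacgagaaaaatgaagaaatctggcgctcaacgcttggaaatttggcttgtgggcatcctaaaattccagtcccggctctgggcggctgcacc
Birc5: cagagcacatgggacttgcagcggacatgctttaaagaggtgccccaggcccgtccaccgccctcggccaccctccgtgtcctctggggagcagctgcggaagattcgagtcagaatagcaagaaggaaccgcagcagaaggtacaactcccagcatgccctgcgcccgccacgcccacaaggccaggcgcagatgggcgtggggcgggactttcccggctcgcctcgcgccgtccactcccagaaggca
Top2a: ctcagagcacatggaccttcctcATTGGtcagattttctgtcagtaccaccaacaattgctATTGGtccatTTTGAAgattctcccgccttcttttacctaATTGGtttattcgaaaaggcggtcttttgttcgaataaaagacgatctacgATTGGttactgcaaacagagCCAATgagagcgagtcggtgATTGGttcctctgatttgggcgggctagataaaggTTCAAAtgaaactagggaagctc
Cdk1: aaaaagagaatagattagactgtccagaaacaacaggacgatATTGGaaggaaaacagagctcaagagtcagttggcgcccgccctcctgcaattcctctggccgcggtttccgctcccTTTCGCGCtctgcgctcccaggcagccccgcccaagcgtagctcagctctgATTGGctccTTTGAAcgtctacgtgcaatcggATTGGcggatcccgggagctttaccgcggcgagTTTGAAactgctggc
Ccnb2: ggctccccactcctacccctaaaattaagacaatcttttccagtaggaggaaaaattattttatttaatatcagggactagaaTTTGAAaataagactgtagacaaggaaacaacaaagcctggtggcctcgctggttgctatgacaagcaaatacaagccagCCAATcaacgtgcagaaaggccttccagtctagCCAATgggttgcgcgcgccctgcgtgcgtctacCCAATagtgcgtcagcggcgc

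The same letters were searched on both strands in windows of 300 bases, from 250 before to 50 after a start, and 35 of the 45 members had at least 1 window in the RefSeq table. No motif contains another. Among the 13 G2 and mitosis members with a window, 10 held a CHR element (76.9%), against 20.2% of 27025 genes with a window, and 12 held a CCAAT box (92.3%), against 41.1%. E2F sites stood in 4 of 10 replication members (40%), 1 of 13 mitosis members (7.69%) and 2.6% of all genes with a window. The *Top2a* window held 2 CHR elements and 6 CCAAT boxes, that of *Cdk1* held 2 CHR elements, 3 CCAAT boxes and 1 E2F site, and that of *Ccnb2* held 3 CCAAT boxes and 2 CHR elements, of which 1 lies past the start and is not in the printed stretch. None of the 3 motifs was matched, with these letters, in the windows of *Tk1* and *Birc5*. Since the *Tk1* window is set on a start inside the gene bounds, less than 250 bases beyond those bounds were searched. A match is a string of letters and no measure of binding.

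The members spanned a wide range of levels within each role. The highest was *Ccnd3*, a D-type cyclin, at an FPKM of 108 and 132 in L-MSCs and 104 and 123 in control MSCs, followed by its partner kinase *Cdk4* at 111 and 88.6 in L-MSCs and 73.8 and 87.8 in control MSCs. *Pcna*, the sliding clamp of the replication fork, had 67.4 and 45.4 in L-MSCs and 69.0 and 44.9 in control MSCs. By contrast *Mki67*, which encodes the Ki-67 antigen used to mark cycling cells, did not exceed 0.56 in any library. Its values were 0.05 and 0.26 in L-MSCs and 0.45 and 0.56 in control MSCs.

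**Figure D1:**
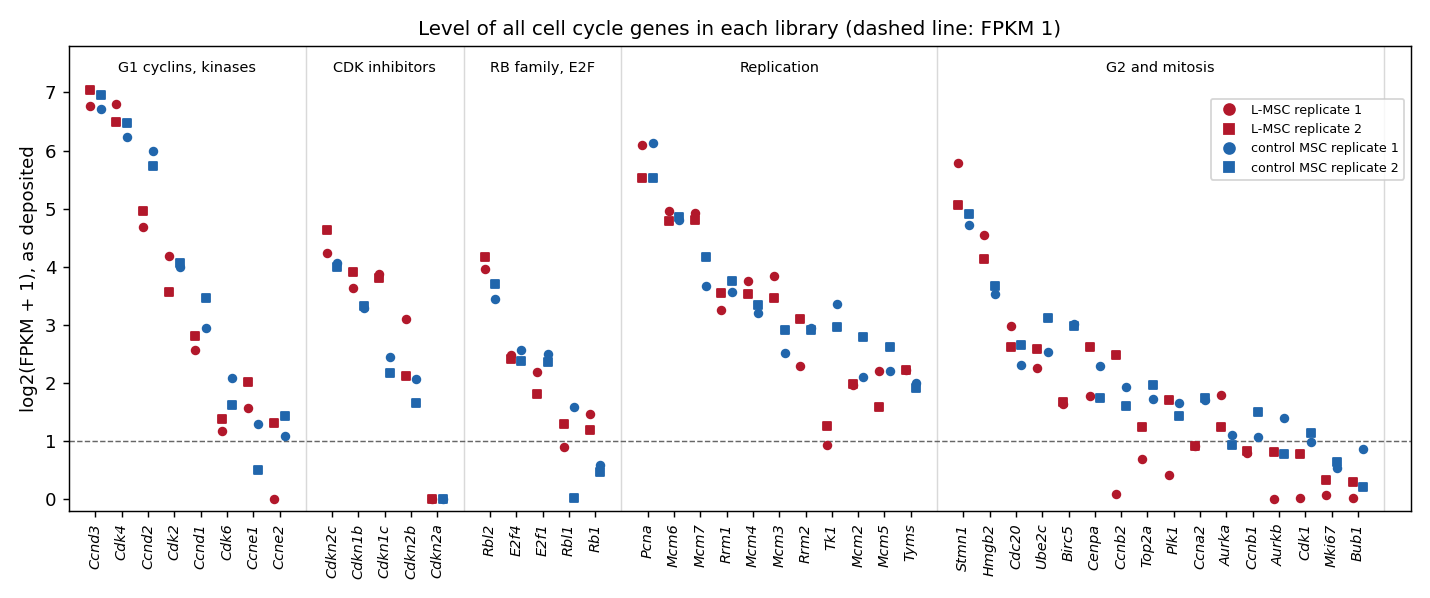
Level of all 45 genes in each library, as log2(FPKM + 1) of the deposited values on the vertical axis, with the genes in their role groups along the horizontal axis and 1 point per library. *Ccnd3*, *Cdk4* and *Pcna* stand highest, and the dashed line at an FPKM of 1 separates most genes from *Cdkn2a*, *Mki67* and *Bub1*, which were below it in all 4 libraries.

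The 5 members not tested were *Cdkn2a*, *Mki67*, *Cdk1*, *Aurkb* and *Bub1*. *Cdk1*, the kinase that drives entry into mitosis, lay just outside the filter, with 0.02 and 0.71 in L-MSCs and 0.97 and 1.2 in control MSCs, and *Aurkb*, the kinase of the chromosomal passenger complex, had 0 and 0.75 in L-MSCs and 1.65 and 0.71 in control MSCs. *Bub1*, a kinase of the spindle checkpoint, had 0.01 and 0.23 in L-MSCs and 0.82 and 0.16 in control MSCs. Just inside the filter, *Rb1* reached an FPKM of 1 only in L-MSCs and *Ccna2* and *Ccnb1* only in control MSCs, so that the filter itself used the difference between the groups in these 3 genes. In bulk RNA, fewer cycling cells and less RNA of these genes per cell cannot be told apart.

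Of the 40 genes tested, 1 was higher in L-MSCs and 3 were lower. *Cdkn1c* rose, and *Tk1*, *Birc5* and *Ccnd2* fell. The 4 calls are 10% of the members tested, beside 5.07% of all 11056 genes tested (2.43% higher and 2.64% lower). The median log2 fold change of the 40 genes was -0.09, beside -0.01 over all genes tested, with 18 genes above 0 and 22 below. After scaling, both L-MSC libraries were above both control libraries in 13 of the 40 genes and below them in 13, which makes 65% without overlap, beside 52% of all genes tested (24.8% higher and 27.2% lower). *Rb1*, *Ccna2* and *Ccnb1* are among the members without overlap, and the filter set their direction. On the deposited FPKM the share of all genes without overlap was 52.5%. The adjusted p alone picked the same 4 members, beside 5.81% of all genes tested (2.58% higher and 3.23% lower). With 2 libraries a group, the smallest 2-sided p of an exact permutation test is 0.333, so that each call rests on the spread limma pools over all genes.

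*Tk1* encodes the cytosolic thymidine kinase, which salvages thymidine for DNA synthesis and is made mainly in S phase. Its FPKM was 0.91 and 1.41 in L-MSCs, against 9.29 and 6.82 in control MSCs, and the groups lay far apart. The mean was 1.16 ± 0.354 in L-MSCs and 8.06 ± 1.75 in control MSCs (SD, n = 2 each), a ratio of 0.144. On the scale of log2(FPKM + 1), on which all fold changes here are given and which understates the change of low genes, *Tk1* fell by 2.13 (standard error 0.33, adjusted p = 0.00736 from limma) and ranked 115 by p among all genes tested. The gene lies on chr11:117815519-117826087 (GRCm38.p6).

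*Birc5* encodes survivin, a part of the chromosomal passenger complex and an inhibitor of apoptosis. It had 2.13 and 2.21 in L-MSCs, against 7.07 and 6.91 in control MSCs, so that the libraries of each group lay close together and the groups were separate. The mean was 2.17 ± 0.0566 in L-MSCs and 6.99 ± 0.113 in control MSCs (SD, n = 2 each), a ratio of 0.310, and the log2 fold change was -1.41 (standard error 0.30, adjusted p = 0.0268 from limma). The gene lies on chr11:117849237-117855743, 23149 bases from the end of *Tk1*.

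*Tk1* and *Birc5* are neighbours, with *Afmid*, a gene of tryptophan breakdown, between them. *Afmid* had 1.17 and 1.43 in L-MSCs and 2.32 and 1.31 in control MSCs and was not called (log2 fold change -0.33, adjusted p = 0.654 from limma). It overlaps *Tk1* by 585 bases, and since the library kit does not mark strand, reads within the overlap cannot be told apart.

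*Ccnd2* encodes cyclin D2, a D-type cyclin. It had 24.8 and 30.2 in L-MSCs, against 62.8 and 52.0 in control MSCs, with no overlap. The mean was 27.5 ± 3.82 in L-MSCs and 57.4 ± 7.63 in control MSCs (SD, n = 2 each), a ratio of 0.479, and the log2 fold change was -1.13 (standard error 0.23, adjusted p = 0.0203 from limma). The gene lies on chr6:127125162-127152188.

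*Cdkn1c* encodes p57, a CIP/KIP inhibitor transcribed from the maternal allele and known for keeping stem cells in quiescence. It had 13.7 and 13.0 in L-MSCs, against 4.43 and 3.53 in control MSCs, with no overlap. The mean was 13.4 ± 0.537 in L-MSCs and 3.98 ± 0.636 in control MSCs (SD, n = 2 each), a ratio of 3.36, and the log2 fold change was 1.44 (standard error 0.28, adjusted p = 0.0191 from limma). The gene lies on chr7:143458339-143461059.

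**Figure D2:**
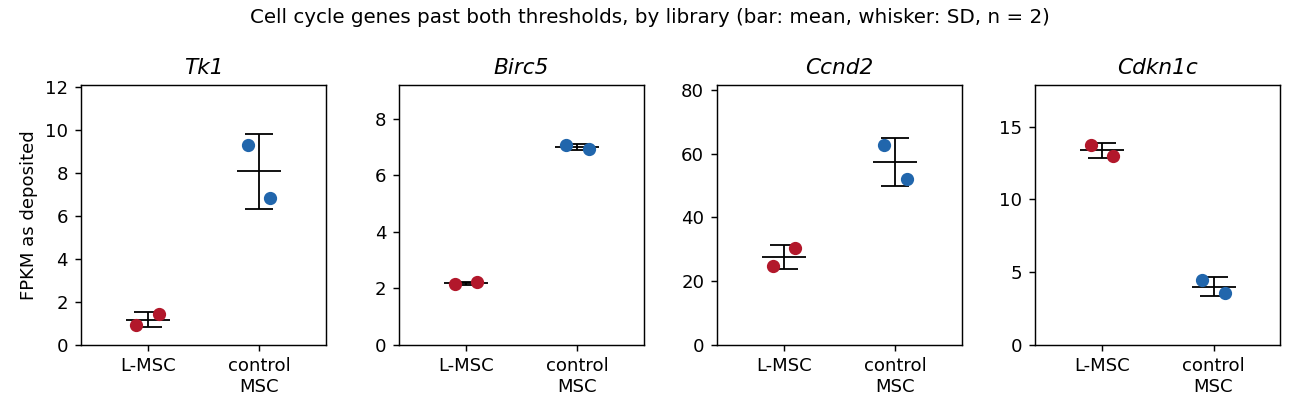
FPKM as deposited of the 4 called genes, with 1 panel per gene, L-MSCs to the left of control MSCs, 1 point per library, bars for the mean and whiskers for the SD (n = 2 each). In each panel the libraries of the groups do not overlap, and *Cdkn1c* is the gene that stands higher in L-MSCs, with a mean of 13.4 beside 3.98.

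*Tk1* was the only one of the 4 genes that passed both thresholds whichever library was left out, with adjusted p-values from limma between 0.000848 and 0.0297 and log2 fold changes between -2.36 and -1.94. *Ccnd2* was not called without L-MSC replicate 1 (adjusted p = 0.0712) or without control replicate 1 (0.0757), nor with 1 common prior variance in place of the trend (0.0721). *Birc5* was not called without control replicate 1 (0.104) or control replicate 2 (0.108), and *Cdkn1c* was not called without control replicate 2 (0.0897). With no filter on low FPKM, where 15785 genes were tested, none of the 4 passed (adjusted p between 0.167 and 0.182). In the fits with a library left out, the group with 1 library is taken to vary like the other. The sign of each of the 4 genes was the same in every one of them.

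**Figure D3:**
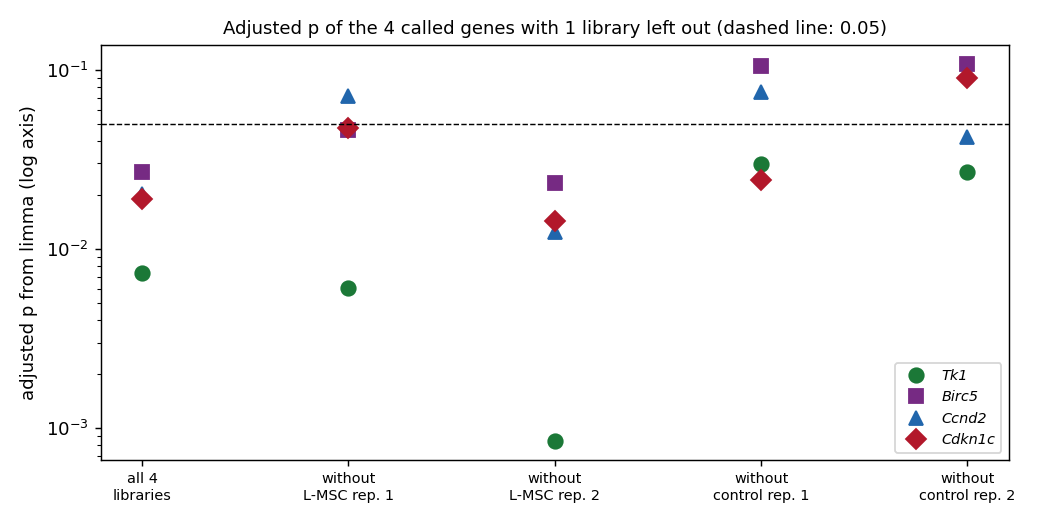
Adjusted p from limma (vertical axis, log scale) of the 4 called genes with all 4 libraries and with each library left out in turn (horizontal axis), with 1 shape of point per gene and a dashed line at 0.05. *Tk1* stays below the dashed line throughout, between 0.000848 and 0.0297, and each of the other 3 genes crosses it at least once.

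Markers of other cells differed between the groups beside these genes. The summed FPKM of 11 erythroid markers was 10.1 and 6.26 in L-MSCs, against 239 and 151 in control MSCs. All 4 globin genes tested were called lower (100%, beside 2.64% of all genes tested). The defining erythroid genes *Slc4a1*, *Klf1*, *Gata1* and *Alas2* were at most 0.73 in every library, and *Epb42* and *Rhag* were at 0 in all 4. All 9 tested osteoblast and chondrocyte markers of 12 had negative fold changes. Of these, 2 were called lower (*Bglap2* and *Acan*), which is 22.2%, beside 2.64% of all genes tested. Their summed FPKM overlapped, with 630 and 1072 in L-MSCs and 1608 and 674 in control MSCs. Sums of 8 pan-leukocyte markers were 40.8 and 39.2 in L-MSCs and 45.9 and 27.9 in control MSCs, and sums of 11 B lineage markers were 8.17 and 2.70 in L-MSCs and 2.07 and 2.85 in control MSCs, with *Rag1*, *Rag2* and *Cd22* at 0 in all 4 libraries. The part of these cells in the levels of *Tk1*, *Birc5*, *Ccnd2* and *Cdkn1c* was not tested.

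Across G1 cyclins and their kinases, 1 of 8 genes was called (*Ccnd2*), which is 12.5%, beside 5.07% of all genes tested. The median log2 fold change was -0.42. Of the other D-type cyclins, *Ccnd1* had 4.96 and 6.02 in L-MSCs and 6.70 and 10.0 in control MSCs (log2 fold change -0.60, adjusted p = 0.290 from limma), and the abundant *Ccnd3* had a log2 fold change of -0.03 (adjusted p = 0.955), a sign that turned positive without scaling, with TPM and with quantile normalization. Whether the 3 genes differed from each other in their change was not tested.

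*Cdk6* had 1.26 and 1.62 in L-MSCs and 3.25 and 2.07 in control MSCs, with no overlap but no call (adjusted p = 0.332 from limma), and *Cdk4* had a log2 fold change of 0.19. Cyclin E activates CDK2 at the entry into S phase. *Ccne1* had 1.97 and 3.06 in L-MSCs and 1.45 and 0.42 in control MSCs (log2 fold change 0.83, adjusted p = 0.262 from limma), while *Ccne2* had 0 and 1.48 in L-MSCs and 1.14 and 1.71 in control MSCs. *Cdk2* had 17.3 and 10.9 in L-MSCs, on either side of the 14.9 and 15.8 of control MSCs.

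The inhibitors were the group in which no tested gene had a negative fold change. All 4 tested of 5 were positive, with a median log2 fold change of 0.52. Of the 4, 3 were without overlap between the groups (75%, beside 52% of all genes tested). *Cdkn1c* was the only call (25%, beside 5.07% of all genes tested). *Cdkn1b*, encoding p27, had 11.4 and 14.0 in L-MSCs and 8.78 and 9.01 in control MSCs (log2 fold change 0.37, adjusted p = 0.460 from limma). Of the INK4 members, *Cdkn2c* (p18) had 17.9 and 23.7 in L-MSCs and 15.7 and 15.0 in control MSCs, and *Cdkn2b* (p15) had 7.59 and 3.35 in L-MSCs and 3.19 and 2.14 in control MSCs. *Cdkn2d*, an INK4 gene held in a wider list, overlapped, with 35.47 and 37.78 in L-MSCs and 38.85 and 28.85 in control MSCs (log2 fold change 0.02). *Cdkn2a*, which encodes p16 and p19ARF and lies beside *Cdkn2b* on chromosome 4, was listed at 0 in all 4 libraries. *Cdkn1a*, encoding p21 and held in a wider list, was the most abundant inhibitor, with 449 and 446 in L-MSCs and 695 and 451 in control MSCs (log2 fold change -0.42, adjusted p = 0.367 from limma).

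No gene of the RB and E2F group was called (0% of 5, beside 5.07% of all genes tested), and the median of its 5 genes was 0.24. In 3 of them the groups did not overlap (60%, beside 52% of all genes tested). *Rb1*, the retinoblastoma gene itself, had 1.75 and 1.29 in L-MSCs and 0.51 and 0.39 in control MSCs (log2 fold change 0.74, adjusted p = 0.268 from limma). It passed the filter only through the L-MSC libraries, so that the filter set its direction and its lack of overlap. *Rbl2*, encoding p130, the RB protein that prevails in quiescent cells, had 14.5 and 17.0 in L-MSCs and 9.84 and 12.0 in control MSCs (log2 fold change 0.40, adjusted p = 0.413). *Rbl1* (p107) was erratic, with 0.87 and 1.46 in L-MSCs and 2.02 and 0.02 in control MSCs. *E2f1*, an activator, had 3.58 and 2.50 in L-MSCs and 4.65 and 4.17 in control MSCs, and *E2f4*, which acts mainly in repression, had 4.59 and 4.31 in L-MSCs and 4.94 and 4.20 in control MSCs.

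**Figure D4:**
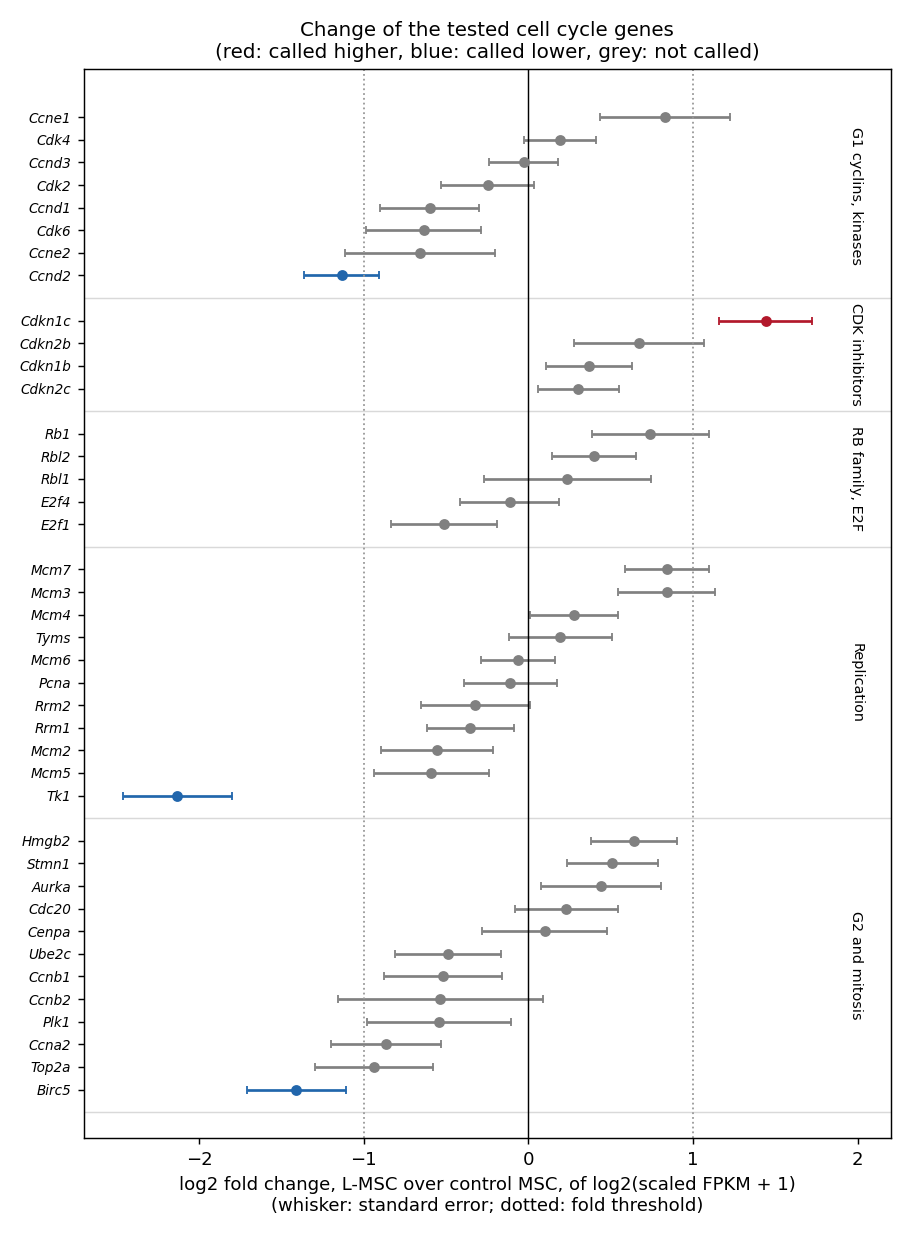
Log2 fold change of L-MSCs over control MSCs, on the scale of log2(scaled FPKM + 1), for the 40 tested genes in their role groups, with whiskers for the standard error and dotted lines at the fold threshold of 1. *Cdkn1c* (1.44) lies beyond the upper line and *Tk1* (-2.13), *Birc5* (-1.41) and *Ccnd2* (-1.13) beyond the lower one, and the other 36 lie between the lines.

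Replication genes did not move as 1 group. Of 11 genes, 4 had both L-MSC libraries above both control libraries and 4 had them below, with a median of -0.11. That makes 72.7% without overlap, beside 52% of all genes tested. *Tk1* was the only call (9.09%, beside 5.07% of all genes tested). The MCM genes, whose 6 products form the helicase that is loaded at origins, were split. *Mcm7* had 29.3 and 27.0 in L-MSCs and 11.8 and 17.1 in control MSCs (log2 fold change 0.84, adjusted p = 0.0919 from limma), and *Mcm3* had 13.3 and 10.0 in L-MSCs and 4.73 and 6.53 in control MSCs (log2 fold change 0.84, adjusted p = 0.141). *Mcm5* had 3.63 and 2.01 in L-MSCs and 3.63 and 5.13 in control MSCs, and *Mcm2* had 2.89 and 2.96 in L-MSCs and 3.31 and 5.91 in control MSCs. Their log2 fold changes were -0.59 and -0.55, neither of them called. *Mcm6*, the most abundant of the 6, had 30.1 and 26.7 in L-MSCs and 27.0 and 28.1 in control MSCs, and *Mcm4* had a log2 fold change of 0.28.

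The enzymes of nucleotide supply other than *Tk1* had smaller differences. *Rrm1* and *Rrm2*, the subunits of ribonucleotide reductase, had log2 fold changes of -0.35 and -0.32, and *Tyms*, the thymidylate synthase that makes thymidylate by the other route, had 3.68 and 3.70 in L-MSCs and 2.99 and 2.77 in control MSCs (log2 fold change 0.19, adjusted p = 0.772 from limma). Pseudogenes named for *Tyms*, *Pcna*, *Ccnd3*, *Ccnb1*, *Ccnb2* and *Stmn1* stand in the RefSeq annotation, and reads of these genes may be shared with them. Whether *Tk1* and *Tyms* differed from each other in their change was not tested.

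In the G2 and mitosis group, 12 of 16 genes were tested and 1 was called (*Birc5*), which is 8.33%, beside 5.07% of all genes tested. In 5 genes both L-MSC libraries were below both control libraries and in 3 they were above. That makes 66.7% without overlap, beside 52% of all genes tested. The median log2 fold change was -0.50. Of the 5 genes, *Ccna2* and *Ccnb1* passed the filter only through the control libraries, so that the filter set their direction. *Top2a*, the topoisomerase that untangles sister chromatids, had 0.62 and 1.38 in L-MSCs and 2.32 and 2.92 in control MSCs (log2 fold change -0.94, adjusted p = 0.167 from limma). *Ccna2* had 0.88 and 0.89 in L-MSCs and 2.25 and 2.36 in control MSCs (log2 fold change -0.87, adjusted p = 0.174), and *Ccnb1* had 0.74 and 0.77 in L-MSCs and 1.09 and 1.83 in control MSCs (log2 fold change -0.52, adjusted p = 0.449). These genes, which encode cyclins A2 and B1 and topoisomerase II alpha, had no overlap between the groups but missed the threshold.

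No other mitosis gene was called. *Stmn1*, which encodes the microtubule-destabilizing protein stathmin, had 54.3 and 32.3 in L-MSCs and 25.2 and 29.1 in control MSCs, and *Hmgb2*, a chromatin protein, had 22.4 and 16.5 in L-MSCs and 10.6 and 11.7 in control MSCs (log2 fold change 0.64, adjusted p = 0.196 from limma). *Aurka*, the centrosomal Aurora kinase, had 2.46 and 1.38 in L-MSCs and 1.16 and 0.90 in control MSCs. Of the anaphase-promoting complex, the activator *Cdc20* overlapped between the groups, with 6.91 and 5.12 in L-MSCs and 3.96 and 5.30 in control MSCs. Its ubiquitin-conjugating enzyme *Ube2c* had 3.81 and 4.99 in L-MSCs and 4.81 and 7.66 in control MSCs, which overlapped as deposited but not after scaling (log2 fold change -0.49, adjusted p = 0.429 from limma). *Cenpa*, the histone of the centromere, overlapped as well, with 2.44 and 5.14 in L-MSCs and 3.92 and 2.35 in control MSCs.

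L-MSC replicate 1 stood apart in the mitosis genes, a pattern that was noticed after the values were seen. *Ccnb2* had 0.07 and 4.61 in L-MSCs and 2.81 and 2.03 in control MSCs, and *Plk1*, the polo-like kinase, had 0.34 and 2.25 in L-MSCs and 2.15 and 1.70 in control MSCs, so that L-MSC replicate 1 was low while L-MSC replicate 2 lay within or above the range of control MSCs. After scaling, L-MSC replicate 1 was the lowest library in 11 of the 16 genes (68.8%) and in 10 of the 12 with a mean FPKM of 0.1 to 5, against 30.1% of all genes tested and 27.7% of the 6687 listed genes with such a mean. It was below an FPKM of 0.1 in 5 of the 16 genes, and the other libraries in 0 of them, while 17.7% of the listed genes with such a mean were that low in L-MSC replicate 1 and 8.14% to 15.5% in the others. The exceptions were *Stmn1*, *Hmgb2*, *Cdc20* and *Aurka*, which were highest in that library, and *Ccna2*, whose L-MSC libraries were nearly equal (0.88 and 0.89). L-MSC replicate 1 was also the library with the fewest genes above 0, and the part of its depth in this pattern was not tested.

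**Figure D5:**
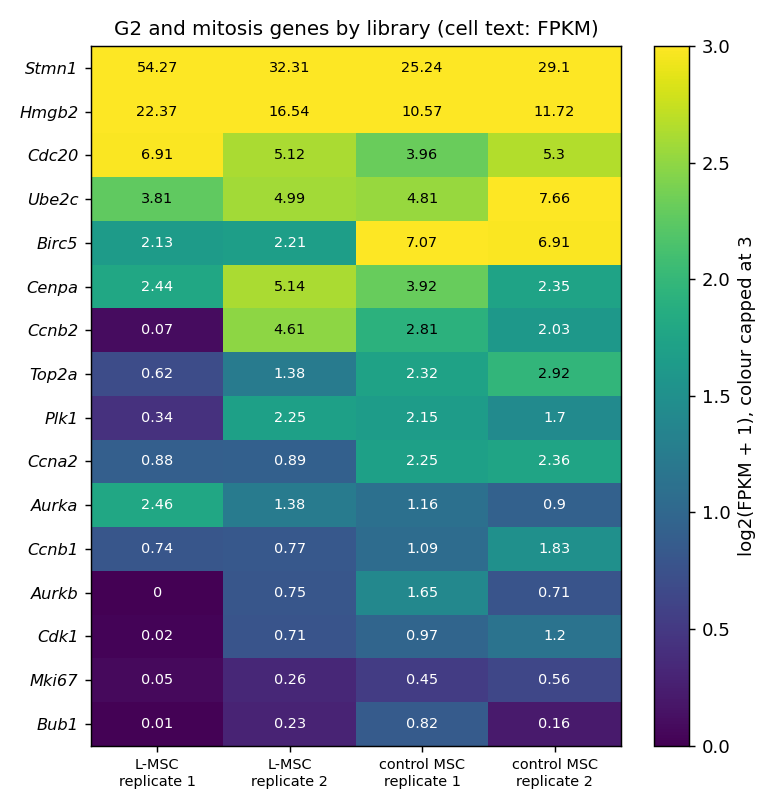
FPKM of the 16 G2 and mitosis genes (rows) in L-MSC replicates 1 and 2 and control replicates 1 and 2 (columns), with the deposited FPKM in each cell and colour by log2(FPKM + 1), capped at 3. The column of L-MSC replicate 1 is the darkest, and so the lowest, for *Ccnb2* (0.07, beside 4.61 in L-MSC replicate 2), *Plk1*, *Cdk1*, *Aurkb*, *Mki67* and *Bub1*, but not for *Stmn1* and *Hmgb2*.

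Of the libraries left out in turn, L-MSC replicate 1 moved the mitosis median most. Without L-MSC replicate 1 it was 0.05, and without L-MSC replicate 2 it was -0.57. Without control replicate 1 it was -0.40 and without control replicate 2 it was -0.27. It also moved to -0.74 with a pseudocount of 0.1 and to 0.37 with a minimum FPKM of 5. *Ccnb2* had a log2 fold change of -0.53 (adjusted p = 0.682 from limma) with all libraries, of 0.62 without L-MSC replicate 1 and of -1.68 without L-MSC replicate 2, where it was called. *Birc5*, by contrast, had -1.41 in the fits without either L-MSC library, and it was not alone in keeping its sign. Without L-MSC replicates 1 and 2 in turn, *Top2a* (-0.68 and -1.19) and *Ube2c* (-0.35 and -0.63) were negative in both fits. *Plk1* turned, with 0.068 and -1.15. *Ccna2* (-0.87 and -0.85) and *Ccnb1* (-0.52 and -0.52) were negative too. These 2 genes passed the filter only through the control libraries, which set that direction beforehand.

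A wider list of 57 other mitosis genes showed the same library apart. L-MSC replicate 1 was lowest in 31 of them (54.4%) and below 0.1 in 20, against 1 in L-MSC replicate 2, 5 in control replicate 1 and 3 in control replicate 2. Of the 57 genes, 33 were tested, with a median of -0.26 and 1 call (3.03%, beside 5.07% of all genes tested). *Spc25*, a subunit of the NDC80 complex of the kinetochore, had 0.02 and 1.02 in L-MSCs, against 5.36 and 4.06 in control MSCs, with no overlap (log2 fold change -2.03, standard error 0.40, adjusted p = 0.0195 from limma), and was not called without control replicate 1 (adjusted p = 0.0708) or control replicate 2 (0.0604), nor with a pseudocount of 0.1 (0.0661). The most abundant uncalled gene was *Pttg1*, encoding securin, with 105 and 92.1 in L-MSCs and 119 and 74.3 in control MSCs, which overlapped.

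In 52 other replication genes the library did not stand apart, since L-MSC replicate 1 was lowest in 14 (26.9%). Of these genes 43 were tested, the median was -0.01 and 1 was called (2.33%, beside 5.07% of all genes tested). *Gins2*, a subunit of the GINS complex of the replicative helicase, had 3.44 and 3.83 in L-MSCs, against 9.53 and 8.18 in control MSCs (log2 fold change -1.17, standard error 0.29, adjusted p = 0.0453 from limma). The call was lost without L-MSC replicate 1 (adjusted p = 0.108), control replicate 1 (0.198) or control replicate 2 (0.124), and also without scaling (0.0636), with TPM (0.0639) and without the variance trend (0.0600). *Gins4*, another subunit, was the most abundant uncalled gene, with 37.5 and 32.8 in L-MSCs and 30.5 and 31.3 in control MSCs.

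Of 28 other regulators of G1 and S, 21 were tested, with a median of 0.17 and 1 call (4.76%, beside 5.07% of all genes tested). *Myc*, the transcription factor that drives growth and entry into the cycle, had 310 and 158 in L-MSCs, against 84.2 and 31.1 in control MSCs (log2 fold change 1.99, standard error 0.44, adjusted p = 0.0316 from limma). The ranges did not overlap, the libraries of each group differed widely, and the call was lost without control replicate 2 (adjusted p = 0.113), in a robust fit (0.146) and without the variance trend (0.0928). *Foxm1* and *Mybl2*, which encode the factors that activate mitosis promoters, were below an FPKM of 1 in all 4 libraries.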

How the data were processed

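MSCs were profiled by SMART-Seq RNA-sequencing in 2 L-MSC and 2 control libraries, each a pool of mice, so that p-values measure the spread between pools. According to the submitters' processing notes and the study's methods, the authors filtered reads with SOAPnuke, aligned them with HISAT2 2.0.4 and Bowtie2 2.2.5 against GRCm38.p6 and calculated the deposited FPKM with RSEM 1.2.8. The log2 fold changes deposited beside them are the authors' own comparison and were not used. Since reads per library are not given, counting error could not be computed.

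Median-of-ratios scaling used the genes above 0 in all 4 libraries. A gene was tested if 2 or more libraries reached an FPKM of 1. The test was limma 3.58.1 (R 4.3.3) with a variance trend, on log2(scaled FPKM + 1), with p-values adjusted over all 11056 genes. The code of the fit was tried on simulated data with known changes, which is no measure of false calls in these libraries. Some marker genes are not reported here. Members and lists were chosen with earlier results of these data known. All members could be named, and from each wider list up to 4 called genes per direction and the most abundant uncalled gene. *Cdkn2d*, *Foxm1* and *Mybl2* were named besides these. Positions and promoters are from RefSeq, in which 17406 genes matched by identifier. Other settings tried were a pseudocount of 0.1 or 0.5, TPM, quantile or no scaling, an FPKM filter at 5 or none, a fit that was robust, lacked the trend or took the replicate number as a block, calls by adjusted p alone, and leaving out each library.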

Additional observations from a re-analysis of the deposited data

How the results depend on the processing

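With 2 pools a group and no reads per library, values near an FPKM of 1 are the least certain here. *Tk1* passed both thresholds under every alternative but 1, the analysis without a filter on low FPKM, in which 0 genes were called by limma, with 15785 genes tested (members higher 0, members lower 0, adjusted p between 0.167 and 0.182 for the 4 genes). At an unadjusted p under 0.05 there were 2355 genes and 11 members in that analysis, beside 2342 and 9. Of all genes tested, 561 were called with all 4 libraries, 276 without the variance trend and 298 (without control replicate 2) to 995 (without L-MSC replicate 2) with 1 library left out. Members called numbered 0 to 1 higher and 1 to 4 lower with each library left out. The sample titles number the replicates without saying whether equal numbers are paired. The differences between replicates 1 and 2 had a correlation of 0.10 across groups over genes, which with 2 pairs cannot settle it. With the replicate number as a block 945 genes were called, with the same 4 members among them.

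The mitosis median moved to -0.74 with a pseudocount of 0.1, to 0.37 with a minimum FPKM of 5, where 21 members were tested, and between -0.57 and 0.045 with each library left out. The median of the 17 tested genes of the cyclin, inhibitor and RB groups together was 0.19 with all libraries and between 0.06 and 0.09 with each library left out, and that of the replication genes was between -0.24 and 0.04 with each library left out. Signs turned in genes that were not called, where the cause was not tested. *Ccnd3* had 0.074 without scaling, 0.033 with TPM and 0.16 with quantile normalization, *Mcm6* had 0.038 and *Pttg1* 0.061 without scaling, *Pttg1* had 0.021 with TPM, and with quantile normalization *Mcm6* had 0.028, *Pcna* 0.061 and *Pttg1* 0.16. With each library left out, log2 fold changes ran from -0.15 to 0.088 for *Ccnd3*, -0.58 to 0.084 for *Cdk2*, -0.58 to 1.05 for *Rbl1*, -0.17 to 0.044 for *Mcm6*, -0.44 to 0.20 for *Pcna*, -0.70 to 0.050 for *Rrm2*, -1.68 to 0.62 for *Ccnb2*, -1.15 to 0.068 for *Plk1*, -0.30 to 0.49 for *Cenpa*, -0.041 to 0.19 for *Gins4*, -0.40 to 0.30 for *Pttg1* and -0.028 to 0.85 for *Ccn1*. Of the values recomputed for single genes, 666 kept direction and side of the threshold, 41 lost and 4 gained a call, and 25 turned sign.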

Other observations

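Genes tied to growth arrest and quiescence were more often above than below 0 in L-MSCs, with 17 of 22 tested positive, a median log2 fold change of 0.62 (beside -0.01 over all genes tested), 3 called higher and 1 lower (18.2% called, beside 5.07% of all genes tested). Over the same list the median log2 difference of control replicate 1 over control replicate 2 was 0.68, no smaller than that between the groups, with summed FPKM of 1852 and 1402 in L-MSCs and 1657 and 806 in control MSCs. *Trp53inp1*, a target of p53, had an FPKM of 27.5 and 26.0 in L-MSCs, against 5.68 and 2.71 in control MSCs (log2 fold change 2.38, adjusted p = 0.00439 from limma). *Gadd45a*, a stress gene of growth arrest, had 28.6 and 21.7 in L-MSCs, against 8.70 and 4.45 in control MSCs (1.74, adjusted p = 0.0166, and 0.0704 without control replicate 2), and *Pik3ip1*, an inhibitor of PI3K, had 79.8 and 74.1 in L-MSCs, against 29.0 and 30.0 in control MSCs (1.25, adjusted p = 0.00966). *Rgcc*, a regulator of the cell cycle, was the call in the other direction, with 255 and 227 in L-MSCs, against 755 and 399 in control MSCs (-1.29, adjusted p = 0.0348, and 0.119 without control replicate 1, with 0.0517 to 0.104 without scaling, with TPM, with quantile normalization or without the variance trend). *Gadd45g*, the most abundant uncalled gene, had 789 and 492 in L-MSCs and 413 and 118 in control MSCs (1.39, adjusted p = 0.137), and was called without L-MSC replicate 2 (0.0171) or control replicate 1 (0.000769) and with the replicate block (2.16e-07).

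Of 25 genes of mitogen signalling into G1, 24 were tested, 2 were called higher and 0 lower (2 called of 24, beside 5.07% of all genes), with a median of 0.17, where control replicate 1 exceeded control replicate 2 by a median of 0.36 (log2). *Jun*, a part of the AP-1 factor, had 390 and 274 in L-MSCs, against 153 and 101 in control MSCs (log2 fold change 1.28, adjusted p = 0.0256 from limma, but 0.0825 without L-MSC replicate 1, 0.127 without control replicate 2 and 0.0897 without the variance trend), and *Ccn2*, a matricellular protein, had 1497 and 1357 in L-MSCs, against 497 and 597 in control MSCs (1.28, adjusted p = 0.0111, and 0.0503 without the variance trend). Neither gene had overlapping groups. *Ccn1*, a relative of *Ccn2* and the most abundant uncalled gene, had a log2 fold change of 0.42 (adjusted p = 0.449). These lists were chosen with results of these data known, so that their counts are a description.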
